A study of Homo sapiens with 11 samples.

Results

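The 10 genes followed here belong to the insulin-like growth factor (IGF) axis and were measured on 11 expression arrays of 2 human lung adenocarcinoma cell lines. The genes were the IGF-binding proteins IGFBP1 to IGFBP7, the receptors IGF1R and IGF2R and the ligand gene IGF2. They were chosen by name, with earlier results of these data known, so shares over all probes given below are a background and not a test of the set. They are 10 of the 20249 genes named on the array, and all 11 probes whose RefSeq accession belongs to one of them were read. IGF2 had 2 probes and each other gene had 1. A549 and HCC827 are established lung adenocarcinoma lines, and both had been infected with a retrovirus and selected with the antibiotic G418 for 4 weeks. The virus carried the empty vector (mock) or the coding sequence of wild-type TRIM58, a ubiquitin ligase, with a FLAG tag (TRIM58-WT), so every group shared the vector backbone and the selection. For A549 there were 4 mock arrays, counted as 3 replicates, and 3 TRIM58-WT arrays, and for HCC827 there were 2 arrays of each kind, each a replicate. The study names its A549 transfectants as clones and its HCC827 transfectants as crude, that is uncloned, populations, and which clone an array holds is not given in the sources used here. The labels give A549 mock arrays 1-1 and 1-2 to the same control cell, and their mean was counted as 1 replicate. Whether the other replicates came from separate clones or cultures is not stated, so the p-values measure only the spread between these replicates.

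IGF1 and IGF2 are secreted peptides that signal through IGF1R, a receptor tyrosine kinase that feeds the PI3K and AKT pathway and supports growth and survival of many carcinoma cells. IGF2R binds IGF2 without a kinase of its own and carries it to the lysosome. IGFBP1 to IGFBP6 bind IGFs with high affinity and either hold them away from IGF1R or bring them to the cell surface, whereas IGFBP7 binds IGFs weakly and also binds insulin and activin.

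Each value below is a log2 signal minus the 75th percentile of its array, so that 0 is the level of a fairly bright probe on that array. The scanner software marks a spot as well above background where its signal clearly exceeds that of the array's background. A probe entered a test if all arrays of 1 or more of the compared groups had it well above background. Calls needed both a limma adjusted p under 0.05 and at least a 2-fold change. Levels of different probes were not compared with each other, since each probe has its own response. Between 40.1% and 50% of the 42405 probes of an array were well above background, no spot was saturated, and precision is limited by the small number of arrays. The spread between replicates was not even. Within A549 TRIM58-WT, the log2 signals of replicates 2 and 3 differed by an SD of 0.21 across probes well above background on both, against 0.73 and 0.76 between either of them and replicate 1. Mock replicate 3 likewise differed from the other A549 mock arrays with SDs of 0.65 to 0.75, where those other arrays differed among themselves by 0.26 to 0.37. The 0.26 is that of mock arrays 1-1 and 1-2, of the same control cell. TRIM58-WT replicates 2 and 3 were thus closer than that pair, and may not be independent, but were counted as 2 replicates. Slide 1 held A549 mock arrays 1-1 and 2, A549 TRIM58-WT replicate 1 and all HCC827 arrays, and slide 2 the other A549 arrays. Before scaling, the 75th percentile signal was 60.3 on A549 mock replicate 3 and 62.5 and 56.6 on TRIM58-WT replicates 2 and 3. It was 90.5 to 125 on the other arrays, mock array 1-2 on slide 2 among them. The part of this signal strength in the A549 differences was not tested. The probe of TRIM58 itself was at background on all arrays labelled TRIM58-WT and was well above it only on A549 mock replicate 3, at -0.71 against -5.33 to -4.63 on the other A549 arrays. The position of that probe relative to the cloned coding sequence was not analysed here, so a direction always means arrays with the TRIM58-WT label relative to those with the mock label, and the A549 calls are also given without mock replicate 3. Epithelial markers KRT7, KRT8 and KRT18 were well above background on all arrays. EPCAM was well above background on 4 of 4 A549 mock arrays, at 0.59 to 2.78, on 1 of 3 A549 TRIM58-WT arrays, at -3.45 to -2, and on all HCC827 arrays. From A549 mock to A549 TRIM58-WT, KRT8 was 7.7 to 7.93 and 6.06 to 6.94, and KRT18 was 9.24 to 10.01 and 8.8 to 9.19. KRT7 overlapped, at 8.94 to 9.95 and 9.03 to 10.08. Of 6 fibroblast markers, COL1A2, COL3A1, DCN and PDGFRB were at background on all arrays, COL1A1 was well above it on 3 of 3 A549 TRIM58-WT arrays and on 0 of 4 mock arrays, LUM was well above it on 3 of 4 A549 mock arrays and on 0 of 3 TRIM58-WT arrays, and the log2 of their summed signal was -1.85 to 0.32 in A549 mock and -0.86 to 0.86 in A549 TRIM58-WT. Of 4 leukocyte markers, CD14 was well above background on 4 of 4 A549 mock arrays and 1 of 3 TRIM58-WT arrays, and the log2 of the summed signal was 0.90 to 1.16 and -1.23 to -0.25 there. The part of these markers in the results was not tested. In RNA of whole cultures, fewer cells with a transcript and less of it per cell cannot be told apart.

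In A549, limma called 4 of the 8 IGF-axis genes that could be tested between TRIM58-WT and mock, where 6.92% of all probes tested were called. IGFBP4 and IGFBP7 were higher by 5.45-fold and 5.55-fold, and IGFBP1 and IGFBP2 were lower by 16.8-fold and 2.8-fold. The number of calls depended on the test and the replicates. The methods' t-test called 0 of these genes in A549, where it called 24 of all 16924 probes and limma called 1171. With limma, leaving out 1 replicate at a time left from 1 to 5 called, IGFBP4 among them each time. In HCC827 limma called 0 of 7 tested genes, where 0.884% of all probes tested were called. The measured changes of IGFBP1, IGFBP2, IGFBP3 and IGFBP6 in HCC827 were all towards higher values in TRIM58-WT. Both IGF receptors stayed within 0.34 (log2) of mock in both lines.

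The stretch of 250 bases before the annotated start of transcription is shown for 3 genes. IGFBP4 was higher in A549 TRIM58-WT, and the measured changes of IGFBP2 and IGFBP6 had opposite signs in the lines. Of the changes of IGFBP2 and IGFBP6 within a line, only that of IGFBP2 in A549 was called. The sequences are those of RefSeq (GRCh38.p14), whose table held a window for 7 of the 10 genes. They run 5′ to 3′ along the strand of the gene, and capitals mark the GC box GGGCGG, the TATA box TATAAA and the insulin response core CAAAACA, each searched on both strands.
IGFBP4, chr17:40443200-40443449, plus strand: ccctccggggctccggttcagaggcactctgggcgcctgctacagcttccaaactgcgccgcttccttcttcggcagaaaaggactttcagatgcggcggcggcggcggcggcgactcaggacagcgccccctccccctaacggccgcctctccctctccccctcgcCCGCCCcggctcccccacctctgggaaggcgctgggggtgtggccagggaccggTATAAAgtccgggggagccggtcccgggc
IGFBP2, chr2:216633170-216633419, plus strand: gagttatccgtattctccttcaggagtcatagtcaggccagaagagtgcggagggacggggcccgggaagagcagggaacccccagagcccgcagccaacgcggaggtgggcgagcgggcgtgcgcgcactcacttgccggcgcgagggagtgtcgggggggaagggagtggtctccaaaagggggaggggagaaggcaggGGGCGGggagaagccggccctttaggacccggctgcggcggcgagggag
IGFBP6, chr12:53097417-53097666, plus strand: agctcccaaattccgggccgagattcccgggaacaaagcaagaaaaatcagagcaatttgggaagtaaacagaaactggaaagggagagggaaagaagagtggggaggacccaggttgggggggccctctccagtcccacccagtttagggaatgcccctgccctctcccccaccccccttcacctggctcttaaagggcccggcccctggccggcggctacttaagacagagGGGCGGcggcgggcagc
The window of IGFBP4 held 1 TATA box, which 10.7% of the 35116 windows in the table held, and 1 GC box, on the other strand, which 42.6% held. It had 24 CpG dinucleotides, against a median of 11 over all windows. The table gave 3 starts for IGFBP2, and the one shown had the most CpG of the 3, 22, beside 1 GC box. The window of IGFBP6 had 9 CpG and 1 GC box. None of the 3 printed windows held the insulin response core, which 4.3% of all windows held. These are matches of letters in 1 window, and no binding was measured.

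**Figure D1:**
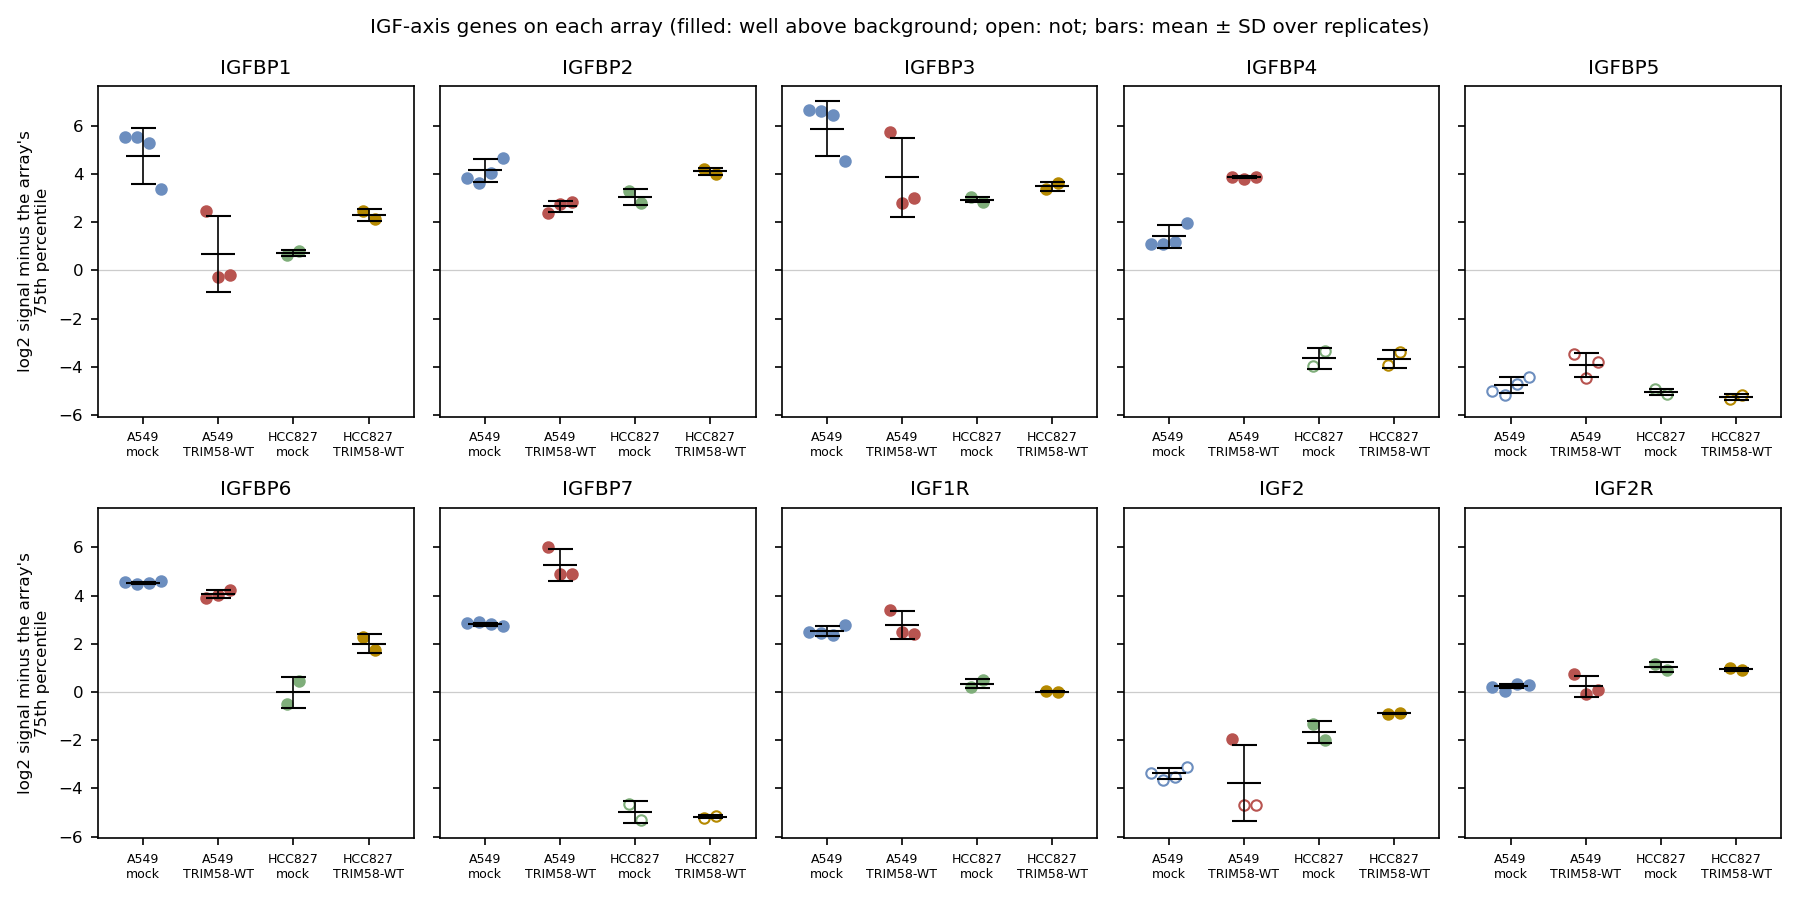
Log2 signal minus the array's 75th percentile (vertical axis) of the 10 genes on each of the 11 arrays, by group; filled points were well above background, open points were not, and bars give the mean ± SD over replicates (A549 mock arrays 1-1 and 1-2 count as 1). IGF2 is shown for its brighter probe. IGFBP4 and IGFBP7 lie higher in A549 TRIM58-WT than in A549 mock and are at background in HCC827, and IGFBP1 and IGFBP3 spread widely within both A549 groups.

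IGFBP4, a secreted inhibitor of IGF action that the protease PAPPA cleaves, was higher on every A549 array labelled TRIM58-WT. Its log2 signal was 1.09, 1.11, 1.17 and 1.96 on mock arrays 1-1, 1-2, 2 and 3 and 3.88, 3.81 and 3.87 in TRIM58-WT replicates 1, 2 and 3. The highest mock array was mock replicate 3, which still lay well below every TRIM58-WT array. The mean was 3.86 ± 0.04 in TRIM58-WT and 1.41 ± 0.48 in mock (SD, n = 3 each), a difference of 2.45 (SE 0.26), called by limma at an adjusted p of 0.00488. Among 16924 probes tested in A549, 6.92% were called in either direction. Within slide 1 the difference was 2.75 and within slide 2 it was 2.31. For each gene below, the value within slide 1 likewise rests on 1 TRIM58-WT array, replicate 1. The value within slide 2 rests on the similar replicates 2 and 3. Mock arrays 1-1 and 1-2, of the same control cell, lie on different slides, so the slides are not independent repeats. Without mock replicate 3 the difference was 2.72 (limma adjusted p = 0.000733).

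IGFBP7, which binds IGFs only weakly and is also known as angiomodulin, was the other member that was higher. It read 2.85, 2.89, 2.82 and 2.72 on mock arrays 1-1, 1-2, 2 and 3, which lay close together, and 6.02, 4.90 and 4.90 in TRIM58-WT replicates 1, 2 and 3. Replicate 1 was the highest by about a log2 unit, and the groups did not overlap. The means of 5.27 ± 0.65 in TRIM58-WT and 2.80 ± 0.08 in mock differed by 2.47 (SE 0.33, n = 3 each), called by limma at an adjusted p of 0.0102. The difference was 3.19 within slide 1 and 2.10 within slide 2. The call was lost without mock replicate 1 (limma adjusted p = 0.0573) and without mock replicate 2 (0.0512), while the difference was 2.51 and 2.48 there. Without mock replicate 3 it was 2.43 (limma adjusted p = 0.0182).

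IGFBP1, which insulin and FOXO factors control in liver, showed the largest difference of the 10 genes in A549. It read 5.54, 5.55, 5.28 and 3.39 on mock arrays 1-1, 1-2, 2 and 3 and 2.48, -0.29 and -0.19 in TRIM58-WT replicates 1, 2 and 3. Mock replicate 3 was the lowest mock array and replicate 1 the highest TRIM58-WT array, and the groups did not overlap. The means were 0.67 ± 1.57 in TRIM58-WT and 4.74 ± 1.17 in mock (n = 3 each), a difference of -4.07 (SE 0.90), called by limma at an adjusted p of 0.0427. It was -2.93 within slide 1 and -4.71 within slide 2. The call did not hold when single replicates were left out, with limma adjusted p of 0.171 and 0.155 when mock replicate 1 or 2 was dropped and of 0.144 and 0.153 when TRIM58-WT replicate 2 or 3 was, whereas it was 0.0284 without mock replicate 3. The size of the fall also depended on single replicates, at -4.74 when mock replicate 3 was left out and -4.98 when TRIM58-WT replicate 1 was. The call was lost with quantile normalization (limma adjusted p = 0.0595) and with normexp background correction (0.0563), and in 9 of 21 alternative settings in all.

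IGFBP2, a binding protein often raised in carcinomas, was lower on every A549 array labelled TRIM58-WT. It read 3.85, 3.64, 4.05 and 4.65 on mock arrays 1-1, 1-2, 2 and 3 and 2.40, 2.77 and 2.82 in TRIM58-WT. All 4 mock arrays lay above all 3 TRIM58-WT arrays. The means of 2.66 ± 0.23 and 4.15 ± 0.46 differed by -1.48 (SE 0.27, n = 3 each), called by limma at an adjusted p of 0.0256, with -1.55 within slide 1 and -1.35 within slide 2. Without mock replicate 1, mock replicate 2, TRIM58-WT replicate 2 or TRIM58-WT replicate 3, the limma adjusted p was 0.0613, 0.0944, 0.0942 and 0.0949, so the call rests on all of these, and it was 0.0231 without mock replicate 3.

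IGFBP3, the main carrier of IGFs in serum, did not pass the test in A549. It read 6.64, 6.61, 6.47 and 4.55 on mock arrays 1-1, 1-2, 2 and 3 and 5.73, 2.81 and 3.02 in TRIM58-WT, so that TRIM58-WT replicate 1 lay above mock replicate 3 and the groups overlapped. The difference was -2.03 (95% interval -4.24 to 0.19, limma adjusted p = 0.233). It was -0.82 within slide 1 and -2.67 within slide 2. Without TRIM58-WT replicate 1 it was -2.97 and was called (limma adjusted p = 0.0499), and with all replicates and arrays shifted by their median it was -2.40 and was called as well (limma adjusted p = 0.0442).

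IGFBP1 and IGFBP3 are neighbours on chromosome 7 with 0 genes of the RefSeq map between them, and they varied among the A549 arrays alike. Mock replicate 3 was lower than the mean of the other mock replicates in both genes, with differences of -2.02 in IGFBP1 and -2 in IGFBP3. TRIM58-WT replicate 1 was above the mean of replicates 2 and 3 by 2.72 in IGFBP1 and by 2.82 in IGFBP3. Pearson's r over the 6 A549 replicates was 0.94, a description of arrays that share scaling and slides. The likeness was not particular to this pair. MACIR, TNFRSF10B and VPS13B each had an r of 0.99 with IGFBP1 over these replicates. Over all 10 replicates IGFBP3 came at rank 68 for IGFBP1 among 12815 genes. IGFBP2 and IGFBP5, neighbours on chromosome 2 with 0 genes between them, could not be compared in this way because IGFBP5 was not above background.

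**Figure D2:**
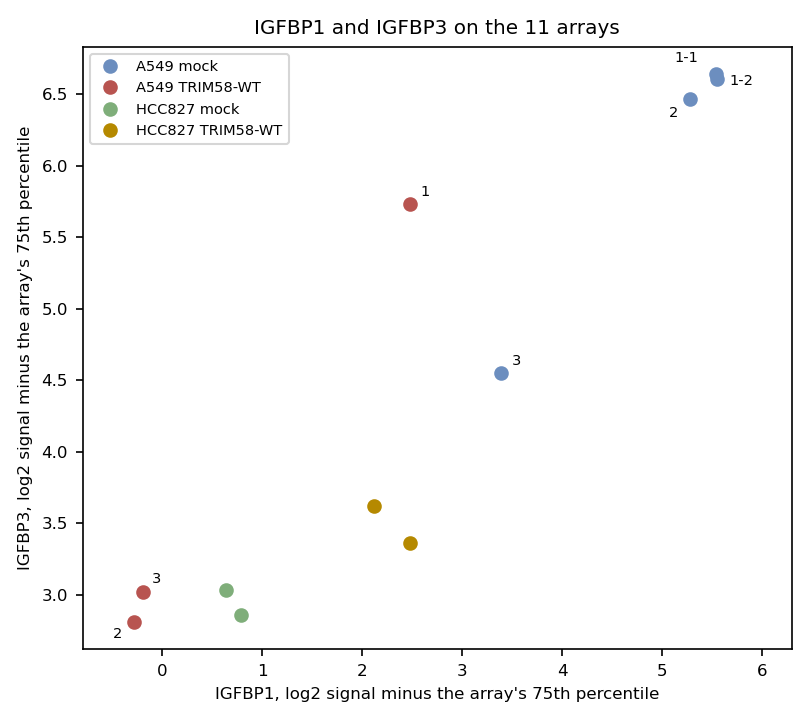
Log2 signal minus the array's 75th percentile of IGFBP1 (horizontal axis) and IGFBP3 (vertical axis) on the 11 arrays, 1 point per array, with A549 arrays labelled by their number. Mock replicate 3 and TRIM58-WT replicate 1 of A549 lie between the other mock arrays at the upper right and TRIM58-WT replicates 2 and 3 at the lower left.

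IGFBP6, which prefers IGF2 over IGF1, read 4.55, 4.48, 4.52 and 4.59 on the A549 mock arrays and 3.91, 4.03 and 4.25 in TRIM58-WT. The groups did not overlap, but the difference of -0.48 (95% interval -0.86 to -0.09) was not called (limma adjusted p = 0.123). Replicates of the groups did not overlap in 5 of the 8 tested genes, where this held for 31.0% of all probes tested in A549. Over the 8 genes the median difference was -0.24 and the median of its size 1.76, against 0.06 and 0.33 over all probes tested.

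The receptors moved little in A549. IGF1R read 2.49, 2.44, 2.35 and 2.76 on the mock arrays and 3.42, 2.48 and 2.39 in TRIM58-WT, where only replicate 1 lay above the mock arrays. Its difference was 0.24 (95% interval -0.51 to 0.99, limma adjusted p = 0.687), with 1.00 within slide 1 and -0.16 within slide 2. IGF2R read 0.21, 0.05, 0.31 and 0.27 on the mock arrays and 0.74, -0.07 and 0.06 in TRIM58-WT, a difference of 0.01 (95% interval -0.59 to 0.60, limma adjusted p = 0.993). The intervals leave room for changes of up to about a log2 unit in IGF1R, and the sign of both differences depended on the scaling, at -0.13 for IGF1R and -0.36 for IGF2R with arrays shifted by their median.

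IGFBP5 and IGF2 were not tested in A549. The probe of IGFBP5 was not well above background on any of the 11 arrays, with values from -5.32 to -3.48. The brighter IGF2 probe, A_23_P150609, was well above background on 1 A549 array, TRIM58-WT replicate 1, at -1.95, and read -4.69 and -4.68 in replicates 2 and 3 and -3.66 to -3.12 on the mock arrays. The other IGF2 probe, A_23_P421379, was at background on all arrays.

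In HCC827 the binding proteins had other levels, and the measured changes of several of them ran the other way. IGFBP1 read 0.64 and 0.79 on the mock arrays and 2.48 and 2.12 in TRIM58-WT, so that both TRIM58-WT arrays were higher. The difference was 1.58 (95% interval 1.1 to 2.07), which missed the threshold at a limma adjusted p of 0.0571. IGFBP2 read 3.28 and 2.79 on the mock arrays and 4.22 and 4.01 in TRIM58-WT, a difference of 1.08 (95% interval 0.49 to 1.66, limma adjusted p = 0.111). Both genes were thus measured higher where A549 had been lower. IGFBP6 read -0.48 and 0.45 on the mock arrays and 2.29 and 1.74 in TRIM58-WT, the largest measured change in HCC827 among the 10 genes, at 2.03 (95% interval 1.00 to 3.06, limma adjusted p = 0.103). IGFBP3 read 3.03 and 2.86 on the mock arrays and 3.36 and 3.62 in TRIM58-WT, a difference of 0.55 (95% interval 0.12 to 0.99, limma adjusted p = 0.184). In each of these 4 genes both TRIM58-WT arrays lay above both mock arrays.

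IGF2 was detected in HCC827 by its brighter probe, with -1.33 and -1.98 on the mock arrays and -0.90 and -0.89 in TRIM58-WT, a difference of 0.76 (95% interval 0.09 to 1.44, limma adjusted p = 0.212). IGF1R read 0.21 and 0.50 on the mock arrays and 0.03 and -0.01 in TRIM58-WT, a difference of -0.34 (95% interval -0.77 to 0.08, limma adjusted p = 0.314). IGF2R read 1.17 and 0.89 on the mock arrays and 0.98 and 0.89 in TRIM58-WT, a difference of -0.09 (95% interval -0.52 to 0.33, limma adjusted p = 0.755), the only tested gene whose HCC827 groups overlapped. IGFBP4, IGFBP5 and IGFBP7 were not well above background on any HCC827 array and were not tested.

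Of the 7 genes tested in HCC827, limma called 0, where 0.884% of 19563 probes were called. At an unadjusted p under 0.05 there were 5 genes in limma, where 20.3% of all probes tested had such a p. The methods' t-test called 0 of all 19542 probes it tested in HCC827 after adjustment, so its 0 says nothing particular to these genes. Groups did not overlap in 6 of the 7 genes, where this held for 56.6% of all probes tested. IGFBP1 was called in 5 of 14 alternative settings, among them without TRIM58-WT replicate 2 (limma adjusted p = 0.0492), and IGFBP6 in 2 of 14. The median difference over the 7 genes was 0.76, against 0.01 over all probes tested.

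**Figure D3:**
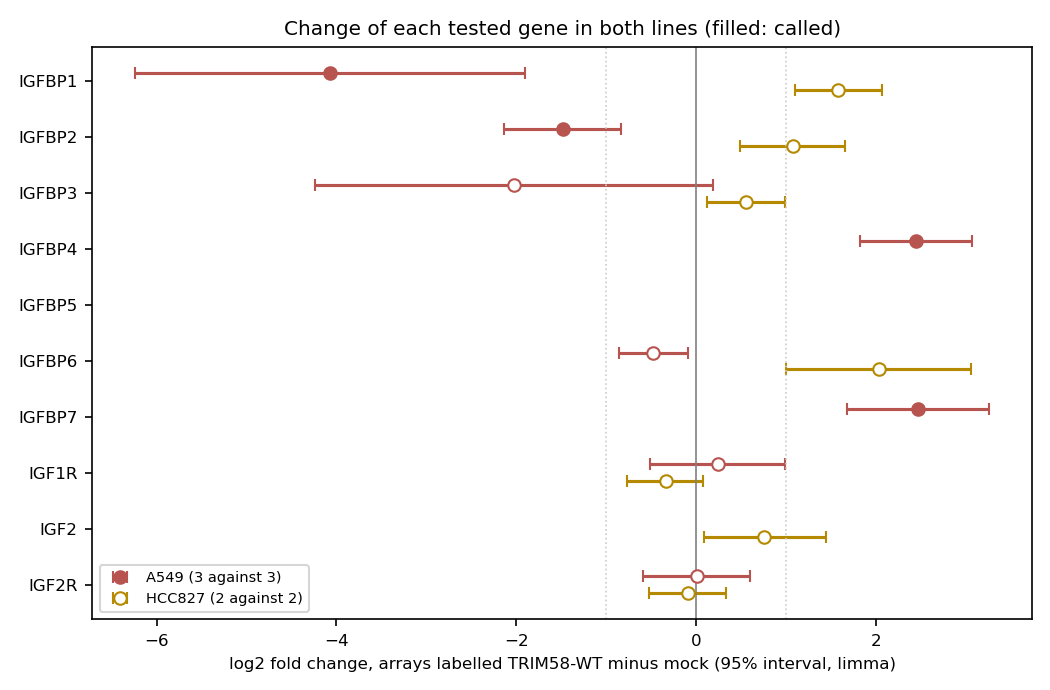
Log2 fold change with its 95% interval from limma (horizontal axis), arrays labelled TRIM58-WT minus mock, of each gene tested in A549 (n = 3 against 3) and HCC827 (n = 2 against 2); filled points were called and dotted lines mark a 2-fold change. IGFBP1, IGFBP2 and IGFBP6 each lie below 0 in A549 and above 0 in HCC827, with intervals that leave out 0. IGFBP5 was tested in neither line, and IGFBP4 and IGFBP7 only in A549.

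Whether the change differed between the lines was tested directly, as the A549 change minus the HCC827 change over all 10 replicates. This contrast uses the same mock and TRIM58-WT arrays as the changes within each line. Limma called 5 of 9 tested genes, of which 3 were measured in both lines and 2 entered the test through their A549 arrays alone, where 3.86% of 20642 probes were called at an adjusted p under 0.05. IGFBP2 changed by -1.48 in A549 and by 1.08 in HCC827, a difference of -2.56 (SE 0.41, limma adjusted p = 0.0152). IGFBP1 changed by -4.07 and by 1.58, a difference of -5.65 (SE 1.26, limma adjusted p = 0.0488). IGFBP6 changed by -0.48 and by 2.03, a difference of -2.51 (SE 0.41, limma adjusted p = 0.0154). In these 3 binding proteins the change was the lower one in A549.

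IGFBP4 and IGFBP7 were at background in both HCC827 groups, so that no HCC827 change could be measured and their fitted differences of 2.46 (SE 0.44, limma adjusted p = 0.0220) and 2.67 (SE 0.50, limma adjusted p = 0.0259) do not show that the lines responded differently. IGFBP3 showed a difference of -2.58 that was not called (95% interval -5.51 to 0.36, limma adjusted p = 0.335), and IGF1R, IGF2 and IGF2R had differences of 0.58 (95% interval -0.42 to 1.59), -1.15 (95% interval -3.55 to 1.25) and 0.10 (95% interval -0.71 to 0.91). The median size of the difference was 2.51 over the 9 genes and 0.45 over all probes tested. That median counts the fitted values of IGFBP4 and IGFBP7, so it does not measure how far the lines differed. Leaving out 1 replicate at a time left between 0 and 6 of the 9 genes called, with 0 without HCC827 TRIM58-WT replicate 1, 1 without either HCC827 mock replicate, 2 without A549 mock replicate 1, A549 mock replicate 2 or HCC827 TRIM58-WT replicate 2, and 3 without A549 TRIM58-WT replicate 2 or 3.

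The arrays labelled mock were also compared between the lines. A549 mock was higher than HCC827 mock in 7 genes and lower in 1 of the 9 tested, all called by limma, where 30.3% of 19505 probes were called. Groups did not overlap in any of the 9 genes, where this held for 69.7% of all probes tested. The greatest gaps were in IGFBP7, at least 65.5-fold higher in A549 (limma adjusted p = 5.76e-05), and IGFBP4, at least 25-fold higher (limma adjusted p = 0.00045). Both are lower bounds, since HCC827 was at background. They set the A549 mean against, on each HCC827 array, the higher of the probe's own signal and the lowest signal well above background. The bounds hold for signals with the deposited background subtraction. With normexp background correction the log2 differences were smaller than these bounds, at 3.66 for IGFBP7 (limma adjusted p = 4.5e-05) and 2.33 for IGFBP4 (limma adjusted p = 0.000286). That correction also added an offset of 50 to each signal, where the 75th percentile signal of an array was 56.6 to 125. Such an offset shrinks the differences of dim probes, so normexp values here and below are not on the scale of the bounds. Without A549 mock replicate 3, 7 genes were called, where 6799 of 20025 probes were. The differences of IGFBP1 and IGFBP3 given next were then larger, at 4.69 and 3.61.

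IGFBP6 was higher in A549 mock by 4.56 (SE 0.30, limma adjusted p = 0.00038), IGFBP1 by 4.02 (SE 0.68, adjusted p = 0.00749), IGFBP3 by 2.94 (SE 0.67, adjusted p = 0.0198) and IGFBP2 by 1.11 (SE 0.33, adjusted p = 0.0444). The calls of IGFBP1 and IGFBP3 were lost without either HCC827 mock replicate (limma adjusted p = 0.0594 and 0.0519 for IGFBP1, 0.100 and 0.110 for IGFBP3), and that of IGFBP3 without A549 mock replicate 1 (0.0569). The call of IGFBP2 was lost without A549 mock replicate 2 (limma adjusted p = 0.0832) and without either HCC827 mock replicate (0.108 and 0.235), and without A549 mock replicate 3 its difference was 0.86, under 2-fold. IGF1R was higher by 2.17 (SE 0.21, limma adjusted p = 0.00116), with means of 2.53 ± 0.21 in A549 (n = 3) and 0.35 ± 0.20 in HCC827 (n = 2). IGF2 was at least 2.35-fold lower in A549 mock, where it was at background (limma adjusted p = 0.00572), but its difference was -0.24 and not called with normexp (limma adjusted p = 0.320). IGF2R was lower by less than 2-fold, at a difference of -0.79 (SE 0.18, limma adjusted p = 0.0183). The median difference over the 9 genes was 2.94, against -0.07 over all probes tested.

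Ordered by their means, the 4 groups ranked differently from gene to gene. IGFBP2 was highest in A549 mock at 4.15 ± 0.46 and HCC827 TRIM58-WT at 4.11 ± 0.15, whose replicates overlapped, followed by HCC827 mock at 3.04 ± 0.34 and A549 TRIM58-WT at 2.66 ± 0.23, which also overlapped. IGFBP1 was highest in A549 mock at 4.74 ± 1.17, then in HCC827 TRIM58-WT at 2.30 ± 0.25, and the replicates of HCC827 mock at 0.72 ± 0.11 and A549 TRIM58-WT at 0.67 ± 1.57 overlapped. IGFBP6 kept both A549 groups, at 4.54 ± 0.04 and 4.06 ± 0.17, above HCC827 TRIM58-WT at 2.01 ± 0.39 and HCC827 mock at -0.02 ± 0.66, and no neighbours in that order overlapped. IGFBP3 ran from 5.88 ± 1.15 in A549 mock through 3.86 ± 1.63 in A549 TRIM58-WT and 3.49 ± 0.18 in HCC827 TRIM58-WT to 2.94 ± 0.12 in HCC827 mock, where neighbours among the first 3 groups overlapped and the HCC827 groups did not. IGF2R was highest in HCC827 mock at 1.03 ± 0.20 and HCC827 TRIM58-WT at 0.94 ± 0.06, with both A549 groups at 0.24. Here n was 3 replicates per A549 group and 2 per HCC827 group.

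Other genes of the pathway were taken from lists of 64 genes by role, of which 63 were on the array. In A549, 38 were tested and limma called 2 higher and 6 lower, where 6.92% of all probes were called, with a median difference of 0.27 against 0.06 over all probes. In HCC827, 41 were tested and limma called 0 higher and 1 lower, where 0.884% of all probes were called, and the median was 0.11. Of 21 adaptors and first kinases, 17 were tested in A549 and 2 were lower, both of which bind the activated receptor or act just below it, beside the same 6.92%. Without mock replicate 3 the 8 genes called in A549 were called too, at limma adjusted p from 0.000611 for IGFL2 to 0.0217 for MMP7.

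IRS2, an adaptor that links IGF1R and the insulin receptor to PI3K, read 2.79, 2.96, 2.67 and 2.54 on the A549 mock arrays and 1.49, 0.93 and 0.90 in TRIM58-WT. The groups were well separated, with a difference of -1.59 (SE 0.22, limma adjusted p = 0.0113). The call was lost without mock replicate 1, mock replicate 2, TRIM58-WT replicate 2 or TRIM58-WT replicate 3, at limma adjusted p of 0.0677, 0.0570, 0.0585 and 0.0644. In HCC827 it read -0.99 and -0.59 on the mock arrays and -0.04 and 0.12 in TRIM58-WT, a difference of 0.83 that was not called (limma adjusted p = 0.132). The change differed between the lines by -2.42 (SE 0.33, limma adjusted p = 0.00766), in the same direction as IGFBP1 and IGFBP2.

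GRB10, an adaptor that inhibits signalling of the insulin and IGF1 receptors, read 3.11, 3.11, 3.07 and 2.99 on the A549 mock arrays and 1.71, 1.64 and 1.59 in TRIM58-WT. Both groups were tight, and the difference of -1.41 (SE 0.14, limma adjusted p = 0.00439) stayed called in all 21 alternative settings. IRS1, the related adaptor, was higher by 1.39 but was not called (limma adjusted p = 0.0546). The insulin receptor INSR differed by -0.12 in A549 (limma adjusted p = 0.890) and by 1.34 in HCC827 (limma adjusted p = 0.0823).

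Of 10 proteases and inhibitors, 9 were on the array and 6 tested in A549, where limma called 1, MMP7. This metalloproteinase, which can cleave binding proteins, read 5.02, 5.06, 5.16 and 3.38 on the mock arrays and 1.29, -1.70 and -1.86 in TRIM58-WT. Mock replicate 3 and TRIM58-WT replicate 1 again lay nearest each other. The difference was -5.28 (SE 0.93, limma adjusted p = 0.0231), and the adjusted p was 0.110, 0.0964, 0.0893 and 0.0948 without mock replicate 1, mock replicate 2, TRIM58-WT replicate 2 or TRIM58-WT replicate 3. Without TRIM58-WT replicate 1 it was -6.31. PAPPA, the protease of IGFBP4, read 3.40, 3.18, 3.30 and 3.22 on the mock arrays and 5.04, 3.12 and 3.12 in TRIM58-WT, so that only replicate 1 was higher, and its difference of 0.49 was not called (limma adjusted p = 0.618). In HCC827 PAPPA was at background on all arrays, and A549 mock was at least 90.6-fold higher than HCC827 mock (limma adjusted p = 0.000197), against a log2 difference of 3.82 with normexp.

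Of 6 CCN genes, matrix-associated proteins with a domain like that of the IGF-binding proteins, 3 were tested in A549. CCN5 read 6.34, 6.29, 6.38 and 5.16 on the mock arrays and 3.49, 2.16 and 2.17 in TRIM58-WT, a difference of -3.34 (SE 0.49, limma adjusted p = 0.0130). Its adjusted p was 0.0725, 0.0623, 0.0589 and 0.0670 without mock replicate 1, mock replicate 2, TRIM58-WT replicate 2 or TRIM58-WT replicate 3. The HCC827 mock arrays read 0.21 and 0.60 and the TRIM58-WT arrays 1.77 and 1.55, which was not called (difference 1.26, limma adjusted p = 0.0794), and the change differed between the lines by -4.60 (SE 0.69, limma adjusted p = 0.0112). CCN2 was at background on all 4 A549 mock arrays and at least 2.49-fold higher in TRIM58-WT (limma adjusted p = 0.0395), but the call was lost in 11 of 20 alternative settings. CCN3 and PLAU, a protease of the plasmin system, were called only for the difference between lines, at -4.25 (SE 0.81, limma adjusted p = 0.0276) and -1.80 (SE 0.34, limma adjusted p = 0.0271). These calls were lost in 12 of 22 alternative settings for CCN3, whose difference ran from -4.92 to -1, and in 13 of 23 for PLAU, and CCN3 could not be tested within A549. Both calls were lost when A549 mock replicate 1 or 2, A549 TRIM58-WT replicate 2 or 3, or any 1 of the HCC827 replicates was left out.

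Of 7 further ligands and decoys, 3 were tested in A549. IGFL2, of the IGF-like family, fell to background, at 0.69, 0.84, 0.95 and -0.28 on the mock arrays and -2.94, -3.35 and -3.40 in TRIM58-WT, at least 8.62-fold lower (limma adjusted p = 0.00356). IGFL3 rose from background by at least 6.55-fold (limma adjusted p = 0.0126), with 0.31, -0.58 and -0.15 in TRIM58-WT and -4.39 to -2.34 on the mock arrays. For IGFL3 the limma adjusted p was 0.0608 when mock replicate 2 was left out and 0.0645 when TRIM58-WT replicate 3 was. With normexp and its offset of 50, which shrinks the differences of dim probes, the log2 differences were below these bounds. They were -1.42 for IGFL2 (limma adjusted p = 0.0243) and 0.81 for IGFL3, which was then not called (0.0578). KAZALD1, a relative of the binding proteins, was lower by 2.07 on the log2 scale, a difference of -2.07 (SE 0.33, limma adjusted p = 0.0162). Its adjusted p was 0.0855, 0.0690, 0.0753 and 0.0822 without mock replicate 1, mock replicate 2, TRIM58-WT replicate 2 or TRIM58-WT replicate 3.

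IGF1, the ligand itself, was not tested in A549. In HCC827 it read -1.69 and -1.45 on the mock arrays and -4.06 and -3.63 in TRIM58-WT, where it was not well above background, a fall of at least 3.48-fold (limma adjusted p = 0.0388). Both mock arrays were higher, and the call was lost in 10 of 13 alternative settings, among them those without mock replicate 1 (adjusted p = 0.186), mock replicate 2 (0.118) and TRIM58-WT replicate 1 (0.0807).

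**Figure D4:**
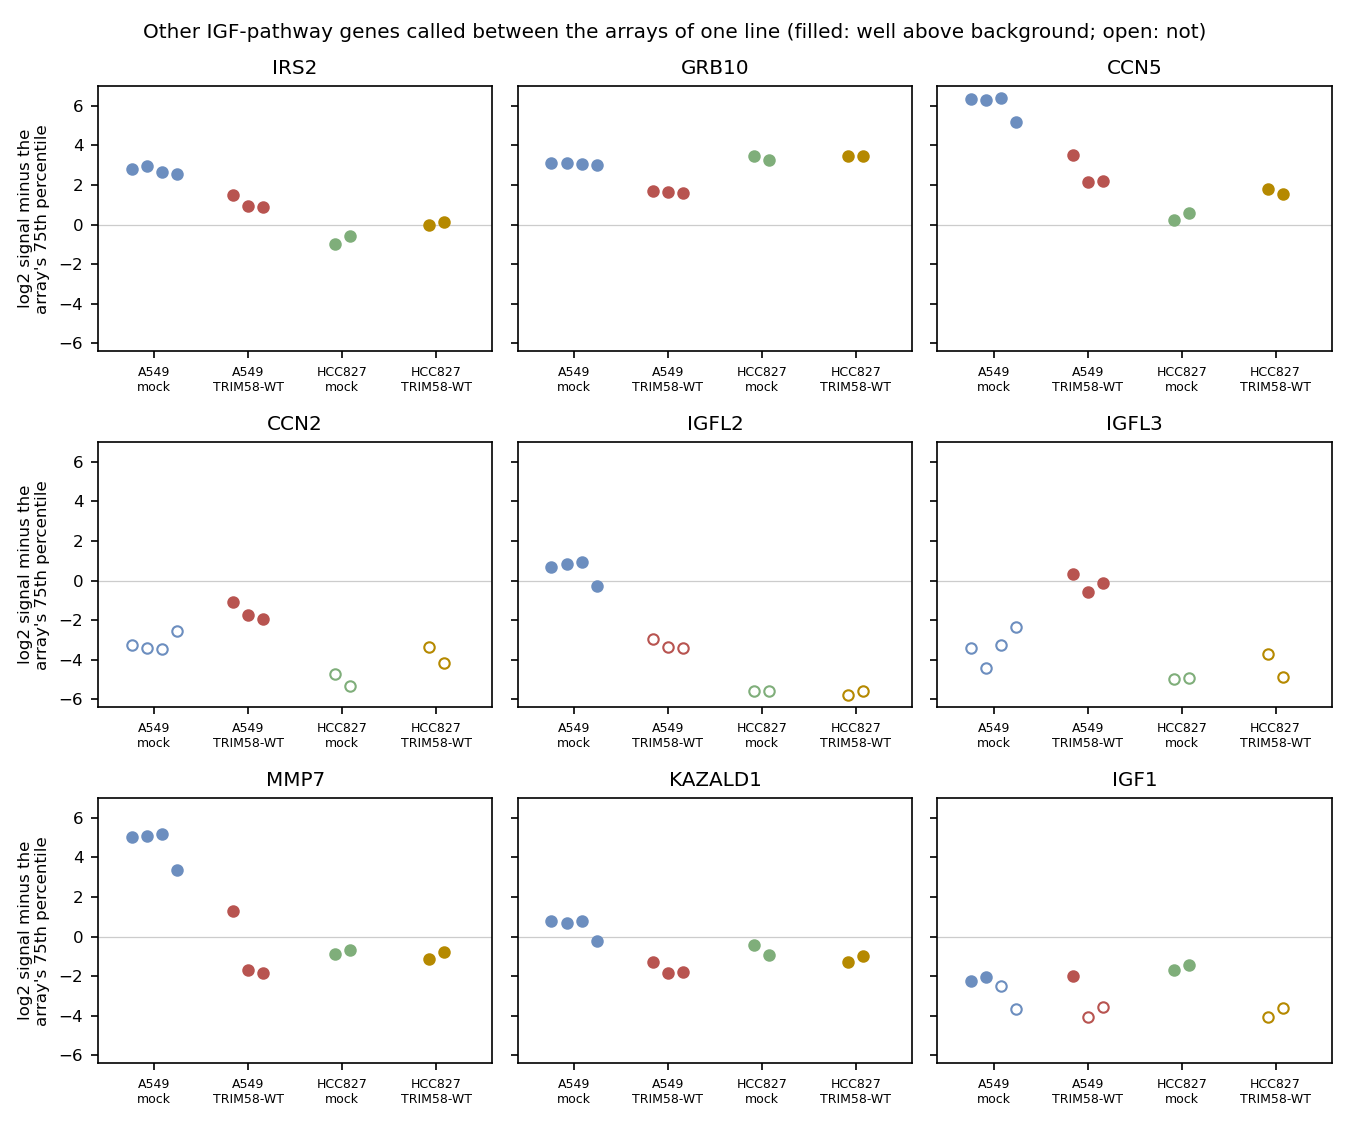
Log2 signal minus the array's 75th percentile (vertical axis) on each array of the 9 other pathway genes called between TRIM58-WT and mock within a line, with filled points well above background and open points not. IRS2, GRB10, CCN5, IGFL2, MMP7 and KAZALD1 lie lower and CCN2 and IGFL3 higher in A549 TRIM58-WT than in A549 mock, and IGF1 lies lower in HCC827 TRIM58-WT than in HCC827 mock.

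Between the mock arrays, limma called 12 pathway genes higher and 12 lower in A549 of 44 tested, where 30.3% of all probes were called. HTRA1, a secreted serine protease with an IGFBP-like domain, exceeded its HCC827 level at least 204-fold (limma adjusted p = 9.66e-05), against a log2 difference of 4.99 with normexp. IRS2 was higher by 3.48 (SE 0.21, limma adjusted p = 0.000286) and CCN5 by 5.55 (SE 0.43, adjusted p = 0.000603). IGF2BP2, which binds IGF2 messenger RNA, differed by -3.85 (SE 0.25, limma adjusted p = 0.000379) and was thus lower in A549. PIK3CA, a catalytic subunit of PI3K, differed by -1.71 (SE 0.15, limma adjusted p = 0.000909).

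Genes with the most similar pattern were ranked by Pearson's r over the 10 replicates among 12815 other genes, separately for the 4 binding proteins called in A549. Since the 2 lines differ in level, r over all replicates mostly orders genes by that difference, and r over the 6 A549 replicates is given beside it. IGFBP4 ranked FOXF2 first (0.998, and 0.99 within A549), followed by KLF12 (0.998, and 0.98) and SFRP1 (0.997, and 0.98), with IGFBP7 at rank 64 (0.988, and 0.93 within A549). IGFBP7 ranked MRAS, GABRA5 and NCKAP5 first, each at 0.998, with 0.97, 0.98 and 0.99 within A549. IGFBP2 ranked PLIN3 (0.971), TRIM41 (0.910) and XPNPEP3 (0.906), with 0.98, 0.97 and 0.95 within A549. IGFBP1 ranked MACIR (0.982), TNFRSF10B (0.976) and VPS13B (0.975), each at 0.99 within A549, with IGFBP3 at rank 68 (0.904, and 0.94 within A549).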

How the data were processed

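Total RNA of the transfectants was labelled in 1 colour and hybridised to Agilent human expression arrays by the authors. The authors deposited, per array, spot intensities that Agilent Feature Extraction 11.5.1.1 (per the file headers, 10.7 in the submitters' processing notes) had background-subtracted and detrended, with no scaling between arrays. A log2 table deposited by the authors served as an alternative. Of its values, 95.5% lay within 0.01 (log2) of the values computed here minus a baseline for each probe. The authors' methods name Gene Spring, an adjusted p and a fold change. They tie no normalization or test to the arrays, and give a rank test and Welch's t-test as general choices for comparing a pair of groups.

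Spots of a probe were averaged after control and outlier spots were left out, and log2 values were set relative to the array's 75th percentile (R 4.3.3, limma 3.58.1). Symbols came from the RefSeq accession of a probe (27241 of 42405 probes named). No probe positions are given, since array designs used an earlier assembly. Promoter positions and the order of genes are those of RefSeq. A probe counted as well above background if over a share of 0.5 of its spots were flagged so. Models were fitted with lmFit and eBayes over all tested probes, separately for each comparison, with Benjamini-Hochberg adjustment. The main probe of a gene is its brightest over the arrays compared. The limma calls of the 4 comparisons were tested on simulated data, in which 200 probes had a log2 change of 2. Of these, 72.5% were recovered for A549, 59.5% for HCC827, 49.5% for the difference between lines and 57.5% between mock groups. False calls numbered 3, 6, 3 and 0. A change of that size can thus go uncalled.

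The members and the pathway lists (ligands, receptors, carriers, CCN genes, proteases, adaptors and kinases, IGF2 RNA-binding proteins, FOXO genes) were chosen with earlier results of these data known. All members are named, and other pathway genes where they were called or where their role bears on a member. IRS1, INSR and PAPPA in A549 were named for that role after their values were seen. Replicate numbers were checked for pairing. Deviations of same-numbered A549 replicates correlated at 0.43, -0.38 and 0.45, and the numbers were not used as pairs in the main tests. Whether same-numbered samples were handled together cannot be told from these correlations. Alternatives were other scalings, normexp background correction with an offset of 50, other filters, all groups in one fit, replicate and slide blocks, the methods' t-test, other uses of near-identical arrays, and each replicate left out in turn. Figures were drawn with matplotlib.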

Additional observations from a re-analysis of the deposited data

Results flagged for a closer look

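The change from mock to TRIM58-WT differed between A549 and HCC827, by limma's test of the difference itself, in 3 IGF-axis genes measured in both lines. The difference, A549 change minus HCC827 change on the log2 scale, was -5.65 for IGFBP1, -2.56 for IGFBP2 and -2.51 for IGFBP6, and the call was lost in 14, 4 and 3 of 23 alternative settings. Among other pathway genes it was -4.60 for CCN5, -2.42 for IRS2, -4.25 for CCN3 and -1.80 for PLAU, of which CCN3 lost the call in 12 of 22 and PLAU in 13 of 23 alternative settings. IGFBP4, IGFBP7 and IGFL2 were at background on all HCC827 arrays and entered the test through A549, so that their fitted values of 2.46, 2.67 and -3.59 passed the threshold without a measurable HCC827 change.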

How the results depend on the processing

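Over 168 values of the 8 tested IGF-axis genes in A549, 140 kept direction and side of the threshold, 20 lost the call, 2 gained it and 6 changed sign. The corresponding numbers were 90, 0, 7 and 1 of 98 in HCC827, 159, 41, 1 and 3 of 204 for the difference between lines, and 138, 21, 0 and 0 of 159 between mock groups. Calls over all probes in A549 numbered 1171 in the main setting, 609 without the filter on dim probes and 333 with TRIM58-WT replicates 2 and 3 averaged. They numbered 24 by the methods' t-test and 297 to 2193 leaving out each replicate. In A549 the number of IGF-axis genes called was 2 without the filter on dim probes and with TRIM58-WT replicates 2 and 3 averaged, 0 by the methods' t-test, and from 1 to 5 leaving out each replicate, where IGFBP4 was called in every case. In HCC827 it was 1 with quantile normalization, normexp, the filter on every array or all groups in one fit, 2 with a median shift, and 0 or 1 leaving out each replicate. For the difference it was 3 with quantile normalization, normexp, no filter, the filter on every array or replicates 2 and 3 averaged, 0 by the methods' t-test, and 0 to 6 leaving out each replicate. Between mock groups it was 5 with the filter on every array, 2 by the methods' t-test, and 5 to 7 leaving out each replicate. The filter on every array leaves out IGFBP4, IGFBP7 and IGF2 where 1 line was at background. Elsewhere the cause was not tested. Calls over all probes moved too. In HCC827 they were 173 in the main setting, 222 with quantile normalization, 106 with normexp and 367 with the filter on every array. For the difference they were 796, and 888, 738, 452 and 394 with quantile normalization, normexp, no filter and the filter on every array. The methods' t-test called 37 for the difference and, between mock groups, 3003 in place of 5906.

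Values that changed sign were near 0. IGF1R in A549 was -0.13 with a median shift, and its lowest value leaving out each replicate was -0.09. IGF2R in A549 was -0.36 with a median shift, -0.02 with mock array 1-1 only, and from -0.24 to 0.16 leaving out each replicate. Its HCC827 change ran from -0.23 to 0.05 leaving out each replicate, and its difference between lines was -0.30 with a median shift, and -0.15 to 0.26 leaving out each replicate. A median shift moved the median of all A549 probes from 0.06 to -0.31 and the share of higher calls from 50.5% to 25.6%, with IGFBP4 and IGFBP7 still called higher. With the replicate block, 1119 A549 probes were called in place of 1171, with 4 IGF-axis genes in both, and in HCC827 0 probes in place of 173. Mock replicates 1 and 2 of A549 tracked TRIM58-WT replicate 1 (0.43 and 0.40) and mock replicate 3 tracked replicates 2 and 3 (0.49 and 0.45), a hint from the data only. Signal over background limits IGFBP5, IGF2 in A549, and IGFBP4 and IGFBP7 in HCC827.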
